A study of Heliocidaris erythrogramma with 5 samples.

Results

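Ionotropic glutamate receptors, the channels that glutamate opens, were followed by name through single-cell RNA-seq of whole larvae of *Heliocidaris erythrogramma* (*He*), a sea urchin whose larvae do not feed and begin to build the adult body early. Members were all features whose gene name, given after the *Strongylocentrotus purpuratus* prefix Sp-, starts with Gria, Grik, Grin or Grid and a digit. The rule took 4 of 38707 features. These were *Gria1* (Sp-Gria1, HER_11497.t1), named as an AMPA-type channel subunit, and 3 features named *Grid2ipL* (HER_15630.t1, HER_15632.t1 and HER_15632.t2). By its name *Grid2ipL* is a protein that binds a delta-type receptor and is not a channel, so 1 of the 4 members carries a channel's name, and the label of a receptor family holds for that member alone. No name in the table began with Grik or Grin and a digit. *Gria1* was chosen by its counts at 60 and 36 hpf in these libraries, so its levels by age are given as a description, with no test.

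The larvae were sampled at 36, 42, 48, 56 and 60 hours post fertilization (hpf), with no treatment or genetic change named in the labels, and 1 library stood for each age. No difference between ages could therefore be set against replicates, age and library cannot be told apart, and no p-value was computed. After the study's filter on cells, 5314, 4268, 4080, 4106 and 8972 cells remained in order of age, 26740 in all. Each library held between 4193645 and 12136079 unique molecular identifiers (UMIs, one per captured RNA molecule), and the median cell held between 814 and 1634.5. The 56 hpf library was the shallowest per cell and the 42 hpf library the deepest. There were 71 barcode sequences that occurred in 2 libraries, which covers 142 cells, and 1 cell with a *Gria1* UMI was among them. All intervals below are 95% and cover counting error only, since UMIs and cells of 1 library are not replicate larvae.

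Glutamate receptors come in AMPA, kainate, NMDA and delta families, all built as tetramers around a central pore. AMPA and kainate channels carry fast signals between neurons in vertebrates, NMDA channels admit calcium, and delta channels need protein partners at the synapse. Sea urchins have glutamate-responsive neurons, and channel subunits of this kind can also be made outside the nervous system. No sequence of these features was at hand, so the names, which come from sequence similarity, were taken as given.

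*Gria1* held 5, 15, 20, 110 and 656 UMIs at 36, 42, 48, 56 and 60 hpf. Divided by DESeq2 size factors, which set the libraries to a common scale, these were 4.53, 14.1, 26.1, 155 and 405 normalized counts. Every age was higher than the one before it, and the 36 and 42 hpf libraries hold so few UMIs that their values are rough. The step from 36 to 42 hpf was 3.12-fold with an interval that reaches down to 1.08, and that from 42 to 48 hpf was 1.84-fold (0.90 to 3.87). The step from 48 to 56 hpf was 5.95-fold (3.67 to 10.1) and that from 56 to 60 hpf 2.61-fold (2.13 to 3.23). The 60 hpf level was 89.3 times the 36 hpf level (38.1 to 276). These intervals describe how few UMIs stand behind each value and are no test, since the gene was picked on the same counts. Of the 14061 features that averaged 10 or more normalized counts, 10.2% had a 60 hpf level at least 2 times that of 36 hpf and 3.83% went up at each of the 4 steps, and *Gria1* ranked at position 9 by its log2 difference of 6.20. The gene was chosen for this difference, so nothing is read from its rank. Just above it stood an unnamed feature with a log2 difference of 6.22, and just below it a *Dynlc2* copy with 6.17.

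Counted by cell, the order of ages was the same, which adds little because most of these cells held a single UMI. A *Gria1* UMI was found in 5, 15, 18, 88 and 563 cells, or 0.094%, 0.35%, 0.44%, 2.14% and 6.28% of the cells of each age. Thinning every cell to 500 UMIs, which removes differences in depth, gave 0.019%, 0.094%, 0.20%, 1.28% and 2.55%. The order of ages did not change, and the share at 60 hpf was less than at full depth. Of the 689 cells with *Gria1*, 594 had a single UMI, 78 had 2, 13 had 3, 3 had 4 and 1 had 5. A cell that makes *Gria1* at this level will often show none, so the cells named here as *Gria1* cells are a sample of those that make it. They were deeper than the other cells of their own library, with medians 1.35 to 2.32 times as high, and all profiles below are therefore given per UMI.

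*Grid2ipL* gave a different course. HER_15630.t1 had 10, 13, 16, 7 and 31 UMIs in order of age, each in a cell of its own, and 9.06, 12.2, 20.8, 9.86 and 19.1 normalized counts. The values went up and down, with the lowest pair at 36 and 56 hpf and the highest pair at 48 and 60 hpf. At 60 hpf it was 2.11 times the 36 hpf level, with an interval of 1.01 to 4.82 that reaches close to no difference. With 1 added to each value its log2 difference was 1.00 after rounding and fell just short of the 2-fold line. HER_15632.t1 and HER_15632.t2 had 0 UMIs in every library. At 60 hpf, the deepest library in total, 3 counts would be a share of 0.25 in 1000000 UMIs, which is the limit a count of 0 allows. Of the 4 members, 2 were therefore measured at all, 2 passed the filter on low counts and 1 was at least 2-fold higher at 60 hpf, beside the 10.2% of all features.

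The rule leaves out 10 features that are also named as glutamate receptor channels, under the older names *Glur* or under *GrikL*. They were listed after the feature names had been seen, and 9 of them had a UMI. *Gria1* lies inside a run of consecutive identifiers with 4 of them, from HER_11494 to HER_11498: *Glur3*, *Glur3_1*, *Glur2_2*, *Gria1* and *Glur1*. Models that follow each other and carry such names may share sequence, so UMIs could be split among them, which was not tested.

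These neighbours were far more abundant than *Gria1* in the early libraries. *Glur1* had 5814, 5239, 4868, 2544 and 10421 UMIs in order of age, or 728, 607, 853, 607 and 859 counts for each 1000000 UMIs of the library (CPM). *Glur2_2* had 254, 165, 303, 226 and 291 CPM, and *Glur3* had 108, 87.0, 90.1, 113 and 131. *Glur3_1* had 560, 452, 454, 600 and 1403 UMIs. None of the 4 had the course of *Gria1*, which had 0.63, 1.74, 3.50, 26.2 and 54.1 CPM. In normalized counts, *Glur1* was 1.22 times, *Glur2_2* 1.18 times, *Glur3* 1.25 times and *Glur3_1* 1.70 times as high at 60 hpf as at 36 hpf. *Gria1* took 3.68% of all UMIs of the 11 channel-named features at 60 hpf and 0.054% at 36 hpf.

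**Figure D1:**
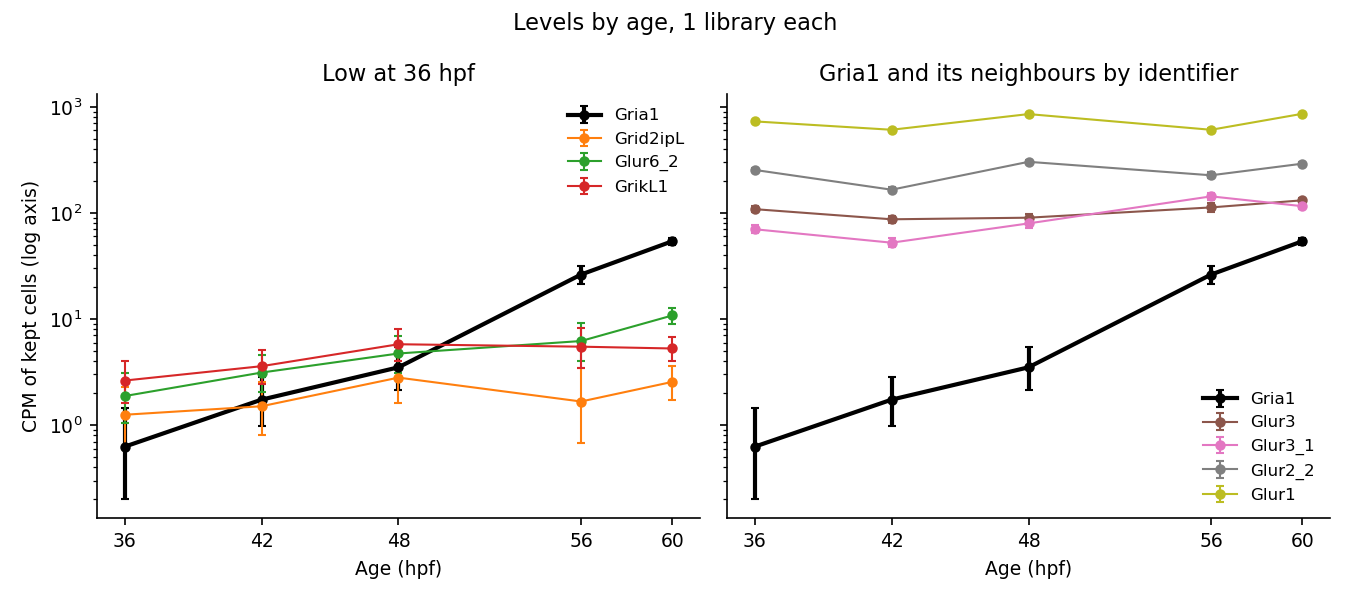
CPM of kept cells (vertical, log axis) against age in hpf, 1 library for each age, with exact Poisson 95% intervals of counting error. On the left, Gria1 (black) lies below Glur6_2 and GrikL1 up to 48 hpf and above them from 56 hpf on, and its interval overlaps that of Grid2ipL up to 48 hpf; on the right, it stays below its 4 neighbours by identifier at all 5 ages, and their lines are flatter.

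The kainate-named features were scarce. *Glur6_2* (HER_842.t1; *Glur6* is an older name of a kainate subunit) had 15, 27, 27, 26 and 131 UMIs, and its 60 hpf level was 5.94 times the 36 hpf level (3.47 to 10.9). *GrikL1* had 21, 31, 33, 23 and 64 UMIs and was 2.07 times as high (1.25 to 3.58). *GrikL2* (HER_36949.t2) had 1, 2, 1, 7 and 18 UMIs, 12.2 times as high with an interval of 1.93 to 510. *Glur6_2* was 1.87 times as high at 42 as at 36 hpf (0.96 to 3.78) and 1.38 times at 48 as at 42 hpf (0.78 to 2.45). From 56 to 60 hpf it was 2.21 times as high (1.44 to 3.50), its only step with an interval above 1. *GrikL1* varied within counting error from each age to the next. *Glur2* had 7, 7, 6, 27 and 24 UMIs and *Glur2_1* had 2, 3, 5, 4 and 9. Of the 10 features, 7 passed the filter on low counts, 3 of these were past 2-fold upward at 60 hpf and 0 downward, where 10.2% and 12.0% of all features tested were past 2-fold in those directions. Their median log2 difference was 0.77, beside -0.01 over all features tested. Summed over the 10, the 60 hpf level was 1.26 times the 36 hpf level (1.22 to 1.29), most of which is *Glur1*.

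To see which cells hold *Gria1*, cells were clustered with all these features left out of the clustering genes, and clusters were named from marker genes of the study. Of 47 clusters 22 were named. *Gria1* cells were spread widely. The cluster with the most of them, cluster 5, held 99, or 14.4% (11.8% to 17.2%). It is led by *Egfi*, *Fn3/Egf_2* and *Egfiii*, fibropellin-type matrix genes of the rudiment ectoderm, the sheet that forms the adult body wall, and is named verified rudiment ectoderm-like. Clusters 16 and 9 held 60 and 48 *Gria1* cells and are posterior ectoderm-like. Cluster 9 is led by *Hox7*, *Lox* and *WntA*, and cluster 16 by *Nk1*, *Lox*, *Clca1-2* and *Slsp_1*. Clusters 3 and 19, with 58 and 46 *Gria1* cells, stayed unnamed and share *Fzd4*, a Wnt receptor, among their leading genes. Cluster 6, unnamed and led by *Tektin3* and tubulin genes of cilia, held 51.

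Over named classes, posterior ectoderm-like clusters held 17.9% of *Gria1* cells and 7.22% of all cells. Verified rudiment ectoderm-like clusters held 16.0% of *Gria1* cells and 4.67% of all cells. Animal pole domain-like clusters were the reverse, with 4.64% of *Gria1* cells and 17.7% of all cells, and so were putative rudiment ectoderm-like clusters with 0.87% and 6.30%. Neural-like clusters held 28 *Gria1* cells, 4.06% of them, and 3.19% of all cells. The unnamed clusters held 50.1% of *Gria1* cells and 50.9% of all cells. The ages of the cells differ between clusters, so these shares mix cell class with age, and levels within single ages follow.

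At 60 hpf *Gria1* was at 162 CPM in posterior ectoderm-like clusters (135 to 193), from 125 UMIs in 101 of 695 cells. Verified rudiment ectoderm-like clusters had 88.9 CPM (72.1 to 108), from 97 UMIs in 82 of 488 cells. The intervals of these levels did not overlap each other. The unnamed clusters came next with 47.7 (42.7 to 53.2). Blastocoelar-like clusters had 36.2 (20.7 to 58.8), animal pole domain-like 34.6 (23.0 to 49.9), neural-like 30.7 (20.4 to 44.3), putative rudiment ectoderm-like 29.5 (8.02 to 75.4) and pigment-like 29.1 (19.7 to 41.2). The intervals of these last 5 overlap. Skeletal-like cells had 0 UMIs in 21 cells, which allows up to 63.4 CPM and so sets no useful limit.

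The neural-like and pigment-like levels lay close together at 60 hpf. A UMI was found in 5.47% of 475 neural-like cells and 3.22% of 902 pigment-like cells, with median depths of 1518 and 931.5 UMIs, and after thinning to 500 UMIs in 1.47% and 1.22%. The neural-like share is therefore not read as expression in that class as a whole, and the part of free RNA in these shares was not tested. Single neural-like clusters varied, with *Gria1* in 5 of 39 cells of cluster 42 (12.8%, 4.30% to 27.4%), 5 of 51 of cluster 40 (9.80%, 3.26% to 21.4%), 14 of 322 of cluster 24 and 2 of 63 of cluster 39. Clusters 42 and 40 were at 63.1 and 49.2 CPM, from so few cells that their shares overlap those of the other neural-like clusters. In posterior ectoderm-like cells the share was 14.5% at a median of 853 UMIs, the thinned share 9.35% (7.29% to 11.8%). In verified rudiment ectoderm-like cells the share was 16.8% at a median of 1895 UMIs, and thinned it was 4.71% (3.01% to 6.99%). The intervals of the unthinned shares overlap (13.6% to 20.4% in verified rudiment cells and 12.0% to 17.4% in posterior cells), so no order is read from them. Per UMI and after thinning the posterior cells were higher.

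The difference between ages was present within these classes. In posterior ectoderm-like cells *Gria1* was found in 0 of 346 cells at 36 hpf, which allows up to 0.87%, and 0 of 282 at 42 hpf, which allows up to 1.06%. It was found in 6 of 348 cells at 48 hpf, 16 of 259 at 56 hpf and 101 of 695 at 60 hpf. The levels from 48 hpf on were 14.2, 95.6 and 162 CPM. In verified rudiment ectoderm-like cells the counts were 0 of 17, 7 of 325, 2 of 173, 19 of 246 and 82 of 488 cells. Their level was 6.33 CPM at 42 hpf, 40.2 at 56 hpf and 88.9 at 60 hpf, and the 48 hpf level rests on 2 UMIs. Neural-like cells had 0 of 61, 1 of 73, 0 of 113, 1 of 131 and 26 of 475 cells with a UMI.

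**Figure D2:**
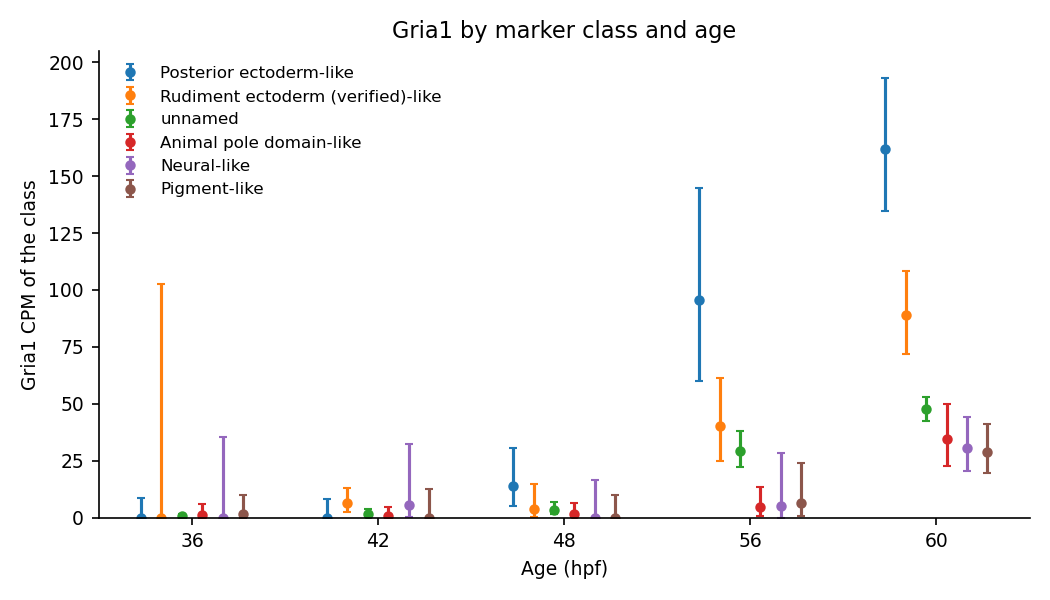
Gria1 CPM of the class (vertical) at each age in hpf (horizontal), by marker class of the cluster, with exact Poisson 95% intervals; the wide bar at 36 hpf rests on 17 cells. Posterior ectoderm-like cells are highest at 56 hpf (95.6) and 60 hpf (162), and at 60 hpf verified rudiment ectoderm-like cells follow with 88.9.

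Levels in single clusters varied more. Cluster 9, led by *Hox7*, had *Gria1* in 0 of 236, 0 of 168, 3 of 169, 9 of 113 and 36 of 198 cells in order of age, and its 60 hpf level was 219 CPM (162 to 290). Cluster 16 had 131 CPM at 60 hpf (100.4 to 169). Cluster 10, unnamed and led by *Chst14L_1* and *Prdm14_1*, was the highest at 56 hpf, with *Gria1* in 25.9% of its cells and 254 CPM, from 14 cells. At 60 hpf it had *Gria1* in 11 of 34 cells at 217 CPM, no higher than at 56 hpf and close to the level of cluster 9. Outside the 6 clusters with the most *Gria1* cells, the level was 0.66, 1.97, 2.86, 19.0 and 38.6 CPM, so the later ages were also higher across the remaining clusters.

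The marker profile of *Gria1* cells was taken per UMI against the other cells of the same library. The 4 posterior ectoderm markers, *Hox7*, *WntA*, *Lox* and *Msx*, were at 1065 CPM in *Gria1* cells and 479 in other cells, a ratio of 2.22 (2.11 to 2.34). By library the ratio was 0.68, 0.91, 3.97, 3.46 and 2.13 in order of age. The first pair of libraries held 5 and 15 *Gria1* cells, with intervals that span 1, and the later 3 were all higher in *Gria1* cells. Verified rudiment ectoderm markers were 1.37 times as high (1.32 to 1.41), and higher in *Gria1* cells in 5 of 5 libraries. The intervals at 36 hpf (0.88 to 2.11) and 42 hpf (0.94 to 1.40) span 1. *Msx* is on this list as well as the posterior one, so these ratios are not independent. Right coelomic pouch markers were 1.52 times (1.37 to 1.68) and putative rudiment ectoderm markers 1.41 times as high (1.32 to 1.51), each in 3 of 5 libraries. Gut and left coelomic pouch markers were 1.28 times as high (1.14 to 1.42).

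Markers of several other cell types were lower in *Gria1* cells. Pigment markers were at 0.42 times (0.38 to 0.47), blastocoelar markers at 0.66 times (0.60 to 0.71) and animal pole domain markers at 0.60 times (0.56 to 0.64) the level of other cells. Skeletal markers were at 0.18 times (0.09 to 0.30), with 13 UMIs in all 689 cells. Neural markers were at 0.82 times the level of other cells (0.80 to 0.83), with ratios of 1.23, 0.88, 0.76, 0.70 and 0.83 in order of age. Nearly all of these UMIs came from *CalmL1*, a calmodulin-like gene found in 99.5% of *Gria1* cells at 60 hpf and so not a mark of neurons there. Without it, the other neural markers, *Secrtag* (secretagogin, a calcium sensor of secreting cells) and *Syt4* (a synaptotagmin), were at 0.52 times the level of other cells (0.47 to 0.58). *Secrtag* was found in 7.46% of *Gria1* cells and 8.90% of other cells at 60 hpf, and *Syt4* in 4.80% and 5.03%, although *Gria1* cells were deeper. The study's marker lists for neural subtypes went both ways. Differentiated neurons 2 was at 1.29 times (1.12 to 1.49), higher in 5 of 5 libraries, the only such list with an interval above 1. *Hmx*, at 1.67 times, gave 126 of the 188 UMIs of that list, which was not read without it. The study also reports *Hmx* outside neurons, in rudiment clusters, so the ratio of this list is not read as a neural signal. Adult gut neurons 1 was lowest at 0.35 times (0.27 to 0.44). Larval enteric neurons was at 3.14 times at 56 hpf (1.86 to 4.96) and 1.12 times at 60 hpf (0.89 to 1.39).

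**Figure D3:**
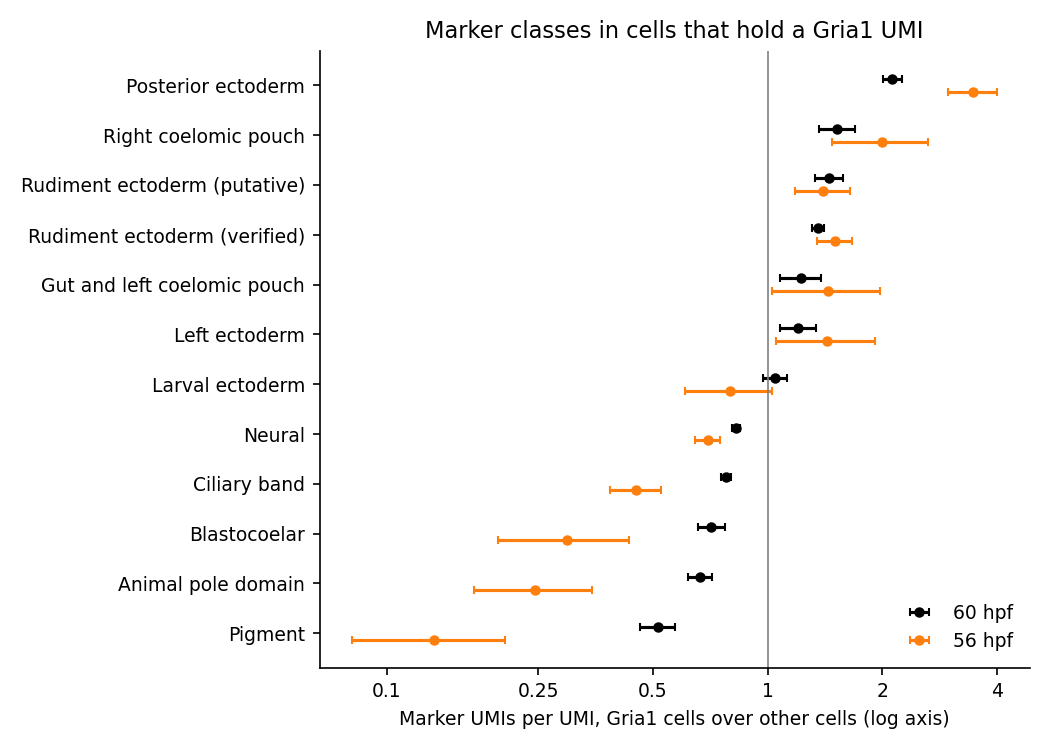
Marker UMIs per UMI in cells with a Gria1 UMI over other cells of the same library (horizontal, log axis) for each marker class of the study (vertical), at 60 hpf (black, 563 Gria1 cells) and 56 hpf (orange, 88 Gria1 cells), with exact Poisson 95% intervals; 2 classes with fewer than 5 marker UMIs in Gria1 cells at 56 hpf are not drawn. Posterior ectoderm is highest at both ages and pigment lowest.

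Of single marker genes, *WntA*, a Wnt ligand, was the highest relative to other cells, at 2.45 times (2.22 to 2.70). It was found in 32.9% of *Gria1* cells and 11.3% of other cells at 60 hpf, and after thinning in 15.8% and 5.46%. *Lox*, a homeobox gene, followed at 2.26 times (1.97 to 2.58), *Hox7* at 2.14 times (1.96 to 2.34) and *Msx* at 2.05 times (1.83 to 2.30). The homeobox gene *Dlx*, a marker of left and rudiment ectoderm, was at 1.83 times (1.60 to 2.09). Next came *Ets1/2* at 1.74 times, *HesA* at 1.74 times, *Hmx* at 1.67 times and *B4galt6_3* at 1.61 times. Of these, *Ets1/2* and *Hmx* are on the study's lists for neural subtypes. *Ets1/2* rests on 31 UMIs, with an interval of 1.19 to 2.48. Over all features with at least 20 UMIs in the *Gria1* cells of 60 hpf, 1.16% were at least 2-fold higher in these cells at that age. With cluster as well as library held, posterior ectoderm markers were still 1.50 times as high (1.43 to 1.58), and verified rudiment ectoderm markers were 0.94 times (0.91 to 0.97).

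*Grid2ipL* had no such profile. Its 77 cells had posterior ectoderm markers at 1.17 times (0.92 to 1.47) and neural markers at 0.94 times (0.89 to 1.01) the level of other cells. Pigment markers were at 0.11 times. Its UMIs were spread over all classes except skeletal-like cells, at 0.31 to 2.62 CPM. Only 2 *Gria1* cells held a *Grid2ipL* UMI, where 2.22 were expected at the share of the other cells.

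Of the other abundant channel-named features, *Glur3_1* and *Glur2_2* shared with *Gria1* the high posterior ectoderm markers of the cells that held them. Posterior ectoderm markers were 2.45 times as high in cells with *Glur3_1* (2.38 to 2.52) and 2.50 times as high in cells with *Glur2_2* (2.45 to 2.55). They were below 1 in cells with *Glur3* (0.94 times) and *Glur1* (0.81 times). Not every class followed *Gria1*. Putative rudiment ectoderm markers, at 1.41 times in *Gria1* cells, were at 0.85 times in cells with *Glur3_1* and 0.73 times with *Glur2_2*, and gut and left coelomic pouch markers, at 1.28 times in *Gria1* cells, were at 0.89 and 0.92 times. Over the 5 ages pooled, posterior ectoderm-like clusters had 312 CPM of *Glur3_1*, 837 of *Glur2_2* and 66.5 of *Gria1*. For each of these 3 features that was the highest of the named classes. For both *Glur2_2* and *Glur3_1* the highest single cluster was cluster 9, at 903 and 332 CPM. *Glur1* and *Glur3* were highest in cluster 28, an unnamed cluster led by *Prdm14_1*, *Pi16* and *Tgfb*, at 2844 and 391 CPM, and *Glur1* was found in 90.9% of its cells.

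With the 5 ages pooled, the kainate-named features were highest in neural-like clusters as a class. *Glur6_2* was at 103 CPM in neural-like clusters and at no more than 2.70 in any other class. *GrikL1* was at 48.0 CPM in neural-like clusters and at no more than 3.54 in any other class, and *GrikL2* at 9.98 and no more than 1.59. In the latest library alone, *GrikL1* was at 36.1 CPM in neural-like cells (24.9 to 50.7). Putative rudiment ectoderm-like cells had 22.1 (4.55 to 64.5), from 3 UMIs. *GrikL2* was at 10.9 in the former (5.25 to 20.1) and 14.7 in the latter (1.78 to 53.2, from 2 UMIs). The intervals overlap, so no order is read there for either feature. *Glur6_2* was at 113 in neural-like cells there and at no more than 7.36 in any other class. Over the 5 ages, the pooled unnamed clusters hide an exception, since unnamed cluster 43 had 136 CPM of *GrikL1* and 22.7 of *Glur6_2*. Unnamed clusters also held 69 of the 172 *GrikL1* UMIs. The highest cluster of *Glur6_2* and *GrikL1* was the neural-like cluster 40, led by *Gucy1b2_1*, *Gpr51* and *Gpr103*, with 302 and 200 CPM. That of *GrikL2* was the neural-like cluster 39, led by *Th*, *Otp* and *Vacht*, genes of catecholamine and acetylcholine neurons, with 48.1 CPM from 11 UMIs. In these clusters *Gria1* was found in 5 and 2 cells. Neural markers were 1.85 times as high in cells with *Glur6_2* (1.80 to 1.90), 1.73 times with *GrikL1* (1.68 to 1.78) and 1.72 times with *GrikL2* (1.60 to 1.85). *CalmL1* makes up most of those UMIs too.

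**Figure D4:**
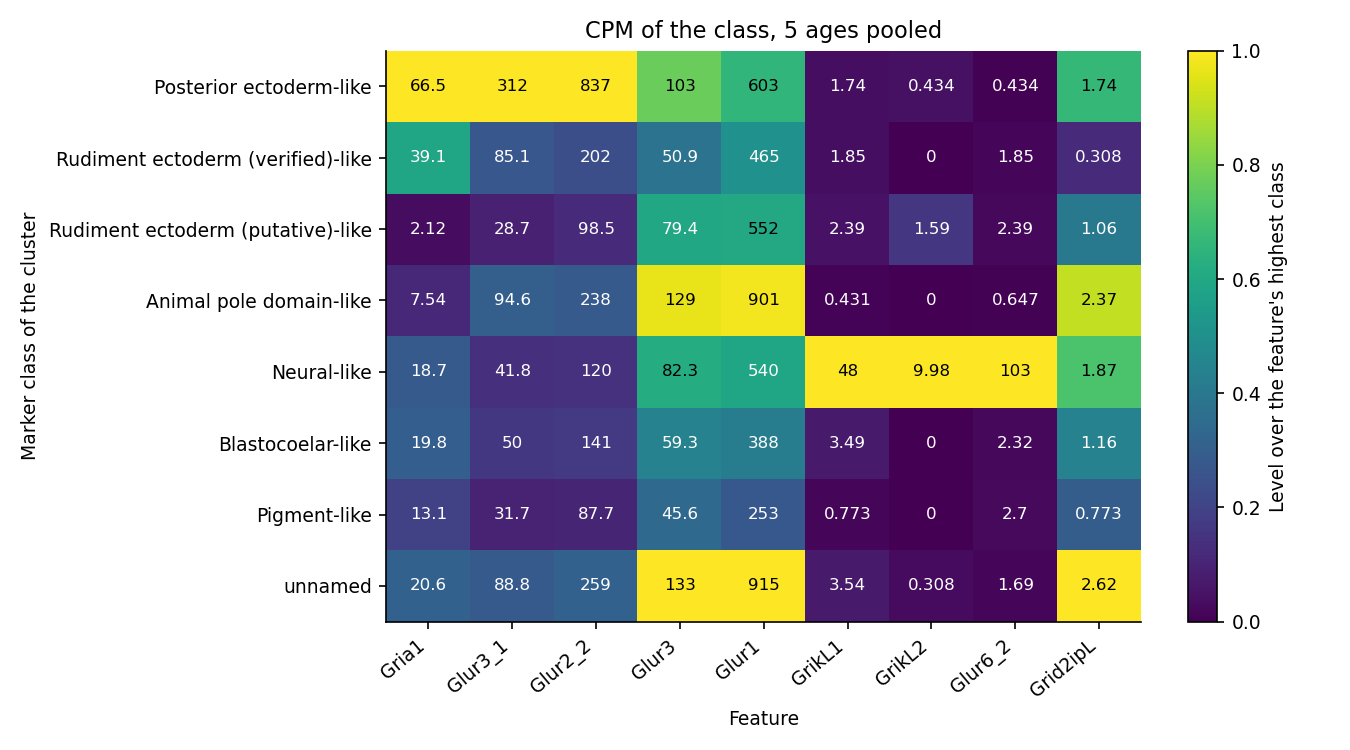
CPM of the class, 5 ages pooled, for each feature (columns) in each class of clusters (rows); numbers are the levels and colour is the level over the feature's highest class of those drawn, with the 61 skeletal-like cells not drawn. Gria1, Glur3_1 and Glur2_2 are highest in posterior ectoderm-like cells, GrikL1, GrikL2 and Glur6_2 in neural-like cells, and Grid2ipL varies over few UMIs.

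Within *Gria1* cells, *Glur3_1* was at 210 CPM and at 108 in other cells of the same libraries, a ratio of 1.94 (1.72 to 2.18), and was higher in 5 of 5 libraries. A *Glur3_1* UMI was found in 219 of the 689 *Gria1* cells, where 81.0 were expected at the share of other cells, which are shallower. *Glur2_2* was at 408 and 269 CPM, a ratio of 1.52 (1.40 to 1.65), also higher in 5 of 5 libraries. With cluster held as well, the ratios were 1.61 (1.43 to 1.81) and 1.28 (1.18 to 1.39). *Glur1* was lower in *Gria1* cells, at 663 and 838 CPM (0.79 times, 0.74 to 0.84), and *Glur3* did not differ beyond counting error (0.94 times, 0.80 to 1.09). *Glur6_2* shared 6 cells with *Gria1*, where 5.23 were expected, and *GrikL1* shared 4, where 4.12 were expected. *GrikL2* also shared 4 cells, where 0.99 were expected. Per UMI it was 3.91 times as high in *Gria1* cells (1.44 to 8.51) and 5.69 times with cluster held (2.09 to 12.4), from only 6 UMIs.

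The leading genes of *Gria1* cells were picked at 60 hpf, as the 20 features with the highest ratio and at least 20 UMIs there, and were then read in the 56 hpf library, which took no part in the choice. At 56 hpf 12 of the 20 were higher in *Gria1* cells, beside 44.9% of all 5413 features read, and 9 were at least 1.5-fold higher, beside 15.6%. The interval was above 1 for 7. Among these were 2 copies of *Chst14L_1*, by name a carbohydrate sulfotransferase and a leading gene of cluster 10. HER_8919.t1 was 3.47 times as high at 60 hpf (2.80 to 4.26) and 7.57 times at 56 hpf (5.27 to 10.5), and HER_8924.t1 3.50 and 6.68 times. HER_8919.t1 was found in 17.0% of *Gria1* cells and 2.34% of other cells at 56 hpf. *HspD1*, a mitochondrial chaperone, was 2.72 times as high at 60 hpf and 3.33 times at 56 hpf (1.97 to 5.26). *Aldh2_1*, an aldehyde dehydrogenase, was 2.58 times as high at 60 hpf and 3.12 times at 56 hpf, with an interval above 1 at both ages. With cluster as well as library held, over all ages, *Aldh2_1* was 1.22 times as high, with an interval that spans 1 (0.98 to 1.50), against 2.53 times with library alone. The *Chst14L_1* copies were lower too, HER_8919.t1 at 1.71 times (1.43 to 2.03) against 3.82 and HER_8924.t1 at 1.57 times (1.31 to 1.86) against 3.95, and *HspD1* was at 1.65 times (1.29 to 2.08) against 2.65.

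Other leading features at 60 hpf rested on few cells. HER_47296.t1 and HER_47979.t1, with the highest ratios of 8.92 and 8.58, had 38 and 67 UMIs in 8 cells each, 21 and 37 of them in a single cell, and 0 UMIs in *Gria1* cells at 56 hpf. Of the 5413 features with at least 20 UMIs in *Gria1* cells at 60 hpf, 0.369% were at least 2-fold lower in these cells. That filter removes features scarce in *Gria1* cells, so the share runs low. A separate list took features for which the rate of other cells would give at least 20 UMIs. Genes of other cell types stood among the lowest of that list. *Bursicona*, a neuropeptide subunit, had 0 UMIs in the 563 *Gria1* cells at 60 hpf, at most 0.16 times the level of other cells, and the skeletal matrix gene *Sm37* had 5 UMIs (0.14 times, 0.05 to 0.34).

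The genes most like *Gria1* over the 45 clusters of at least 50 cells, by Pearson r of log2 of CPM plus 10, were *aminotransferase* (r = 0.72), *Osgin1* (0.71), *Slc16a14L_3* (0.69), *Nbn* (0.69), *Mpp5-3* (0.69), *Cad96caL3* (0.68), *Slc16a1L* (0.68), *Ugt1L_2* (0.67), *Lamp1* (0.67) and *Igf_23* (0.66). *Slc16a1L* and *Slc16a14L_3* carry names of the monocarboxylate transporter family. The clusters share libraries and depth, so these values are a description. In single cells *Osgin1* was 1.40 times as high in *Gria1* cells (1.14 to 1.70), and *Nbn* was at 0.94 times (0.73 to 1.20), so likeness over clusters did not always go with sharing of cells.

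Other parts of the glutamate pathway were counted from lists of gene names, over the same 36 and 60 hpf libraries. Of 8 metabotropic glutamate receptors tested, which act through G proteins, 3 were past 2-fold upward at 60 hpf and 1 past 2-fold downward, with a median log2 difference of 0.12. *Mglur7* (HER_40307.t1_HER_40310.t1) had 11, 14, 25, 41 and 173 UMIs in order of age, 10.7 times as high at 60 as at 36 hpf (5.84 to 21.8). Another *Mglur7* feature, HER_40305.t1, was at 0.50 times (0.31 to 0.80). *Mglur8* was 7.49 times as high from 22 and 2 UMIs, *Grm3L* 2.24 times (0.93 to 6.17), *Grm7* 0.80 times (0.47 to 1.38) and *Grm6L* (HER_432.t1) 0.29 times (0.18 to 0.46). Per UMI, HER_432.t1 was 9.33 times as high in *Gria1* cells as in other cells of the same library (6.63 to 12.7), from 39 UMIs. With cluster held as well it was 2.43 times as high (1.73 to 3.32), and another *Grm6L* feature, HER_460.t1, was at 0.67 times (0.41 to 1.03).

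Transporters and enzymes that move or metabolize glutamate were listed as well. All 4 tested features of the vesicular list carry the name *Slc17a5*, in mammals a lysosomal exporter of sialic acid, and 0 of them were past 2-fold, at 0.78 to 1.37 times. *Slc1a3*, a plasma membrane glutamate transporter that clears glutamate, was 3.52 times as high from 31 and 6 UMIs (1.45 to 10.3), and 2 *Slc1a2L* features were at 0.87 and 1.07 times. Of 10 metabolism features, with a median log2 difference of 0.66, 2 were at least 2-fold higher, *Got2* (mitochondrial aspartate aminotransferase, 2.90 times, 2.42 to 3.48) and a *Gluld1* feature (HER_39322.t1, 2.88 times, from 110 and 26 UMIs). *Glul*, glutamine synthetase, had 1715, 1284, 627, 720 and 1473 UMIs and was at 0.58 times (0.54 to 0.63).

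Of 8 tested features on a list of names for proteins that assemble or assist the channels, 1 was at least 2-fold higher and 1 lower. The list went by name and also took features named *Frrs1*, *Ghitm* and *GrinaL*, so its count is not one of proteins known to act on these channels. *Neto1*, an auxiliary subunit of kainate and NMDA receptors in vertebrates, had 243, 295, 250, 265 and 952 UMIs, 2.67 times as high at 60 as at 36 hpf (2.31 to 3.08). *Cnih*, a cornichon that carries AMPA receptors out of the endoplasmic reticulum in vertebrates, was at 0.45 times (0.39 to 0.53). *GrinaL* (HER_32737.t1), named for an NMDA receptor-associated protein, was 1.32 times as high (1.18 to 1.46). Of 18 scaffold and signalling features 3 were at least 2-fold higher and 1 lower. *Nos_2*, a nitric oxide synthase, was 13.2 times as high from 58 and 3 UMIs, *Lrrtm2*, a synaptic adhesion protein, 6.81 times (3.43 to 15.4), and *Dlg1L*, a membrane scaffold, was at 0.57 times (0.53 to 0.61).

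The other lists fall outside the glutamate pathway. Of 21 other ligand-gated channels tested 7 were at least 2-fold higher and 0 lower, with a median log2 difference of 0.77. *Chrna9L_2* (an acetylcholine receptor subunit, HER_9118.t1_HER_9120.t1.1.5f2d73b9) was 8.26 times (4.79 to 15.4) and *Glra1_1* (a glycine receptor subunit) 8.30 times as high (3.37 to 26.5). Of 26 presynaptic release features 7 were at least 2-fold higher and 0 lower, with a median of 0.48. *Syt12* was 6.81 times, *Syt4* (HER_10174.t1) 5.52 times and *Rims_1*, an organiser of the release site, 4.66 times as high (3.46 to 6.38). These counts are read beside the 10.2% of all features at least 2-fold higher and the 12.0% at least 2-fold lower, and the number of cells of a type and the RNA per cell cannot be told apart in these sums.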

How the data were processed

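Whole larvae were dissociated, fixed in methanol and sequenced on the 10x Chromium 3' v3.1 platform, 1 library for each age. For each the authors deposited matrices of whole-number UMI counts from Cell Ranger 3.1.0, per the file headers, with no normalization. The name of the 56 hpf file reads 54 hpf, and the age in the label was used.

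The study's limits on cells (more than 200 and fewer than 4000 genes, fewer than 10000 UMIs) removed 41 of 26781 barcodes. Doublets were neither called nor removed and remain in every share. UMIs summed for each library were divided by size factors of DESeq2 1.42.0 and compared as ratios, with 1 added before a log2 value was taken, for features averaging 10 or more normalized counts. Ratios carry conditional binomial, counts exact Poisson and shares Clopper-Pearson intervals at 95%. Profiles of cells with a UMI were taken against the rate of other cells of the same library, and with cluster held against other cells of the same library and cluster. Thinning drew each cell down to 500 UMIs and dropped shallower cells, 11 of 36 hpf and 509 of 56 hpf. Clusters came from SCTransform and Louvain at resolution 3 in Seurat 5.3.0 (sctransform 0.4.2). They were named from the study's markers, several of which it picked from these libraries, by a rule settled after marker ratios had been seen. A class needed at least 3 markers. The folds and intervals were tested on simulated data.

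The members, lists, markers and tests were chosen with earlier results of these data known. The 10 other channel-named features and removals from the pathway lists were chosen after names had been seen. Named genes were all members, the 3 features of each pathway list with the largest rise and fall (of which the text gives those that matter and a range), the 10 with the highest Pearson r with *Gria1* over clusters, and the 10 markers highest in *Gria1* cells with at least 10 UMIs. Some genes that this rule names are not reported here. Leading genes of *Gria1* cells were added after the data were seen. Alternatives tried were CPM, TMM factors of edgeR 4.0.16, all barcodes, cells with over 500 genes, equal weight for each cell, other thinning, a minimum of 2 UMIs, each library left out, and other clusterings.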

Additional observations from a re-analysis of the deposited data

Results flagged for a closer look

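For 2 of the leading features of *Gria1* cells the 56 and 60 hpf libraries went opposite ways, and the difference was not tested. *Acsc3*, a homologue of the proneural achaete-scute factors, was 2.89 times as high in *Gria1* cells as in other cells at 60 hpf (2.02 to 4.00) and 0 times at 56 hpf, where it had 0 UMIs in 88 *Gria1* cells (at most 0.76 times). *Astacin2*, by name a metalloprotease, was 2.63 times as high at 60 hpf (2.19 to 3.13) and 0 times at 56 hpf (at most 0.32 times). Both were chosen for their ratio at 60 hpf. There the 36 UMIs of *Acsc3* lay in 6 of 563 *Gria1* cells, and the 127 UMIs of *Astacin2* in 2 cells, 99 of them in a single cell. Each age had 1 library, so there was no spread within an age to examine.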

How the results depend on the processing

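Each age had 1 library, so no alternative has a test, and a value is called moved where it left the 95% interval of the value reported. Between 60 and 36 hpf, *Gria1* stayed at 76.1 to 93.5 times under the scalings and cell filters. With 56 hpf in place of 60 hpf, added after the data had been seen, it was 34.2 times. *Grid2ipL* ranged between 1.09 times (56 in place of 60 hpf) and 2.45 times, inside its interval. The count of members at least 2-fold higher was 2 in place of 1 with TMM factors and 2 with equal weight for each cell, since *Grid2ipL* sits at the line.

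The share of cells with *Gria1* at 60 hpf, 6.28%, was 8.61% in cells with over 500 genes, 2.55% after thinning to 500 UMIs, 4.87% after thinning to 1000 UMIs and 0.85% for at least 2 UMIs. The neural marker ratio of 0.82 was 0.84 in cells with over 500 genes, 0.79 for at least 2 UMIs, 0.78 after thinning, 0.77 without the 60 hpf library and 0.52 without *CalmL1*, the last added after the data had been seen. It was below 1 under all 11 alternatives. The posterior ectoderm ratio of 2.22, with alternatives added after the data had been seen, was 2.06 in cells with over 500 genes, 2.95 for at least 2 UMIs, 3.64 after thinning, 2.79 without the 60 hpf library and 1.50 with cluster held, above 1 under all 10. The share of *Gria1* cells in their leading cluster, 14.4%, was 22.2% at resolution 1, where that cluster was an unnamed one led by *Fzd4*, *MacpfD.3* and an unnamed feature, and 13.4% to 15.9% under the others. No paired analysis was possible because each age had a single library and no test was run.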
